A study of Homo sapiens with 48 samples.

Results

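How genes rise and fall together from library to library was described in 31 embryoid body libraries, each treatment arm centred on its own mean. They were chosen by their labels from 48 libraries of the series: 16 CEPT EB libraries and 15 of the 16 Y27 EB libraries. The other Y27 EB library, number 15, held 379810 reads, under the minimum of 500000, and was left out. All cultures came from the WA09 (H9) line of human embryonic stem cells, with a genotype labelled normal. Embryoid bodies are aggregates in which stem cells differentiate in suspension, and these were seeded at 20000 cells per well and kept in Essential 6 (E6) medium for 7 days. For the first 24 hours they received either CEPT, a cytoprotective cocktail, or Y-27632, a small molecule that keeps dissociated stem cells alive. Control cultures of the line gave 4 libraries each: hESC without differentiation, ectoderm (6 days with 100 nM LDN-193189, a BMP receptor inhibitor, and 2 µM A83-01, a TGF-beta receptor inhibitor), and mesoderm and endoderm made with STEMdiff kits for 5 days. Whether a library held 1 embryoid body or several is not stated in the labels. The p-values take libraries as exchangeable within an arm, which the labels do not settle, and concern these libraries alone. No test between the arms was made.

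Pluripotent cells are held in place by a network of transcription factors such as NANOG and by Nodal signals, in which TDGF1 is a co-receptor and the LEFTY proteins are secreted inhibitors. Embryoid bodies in a medium without added growth factors lose this network and tend towards neural fates, marked in turn by progenitor genes such as NES and SOX11 and by neuronal genes such as DCX and TUBB3. In such bulk lysates fewer cells of a type and less RNA per cell cannot be told apart.

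RNA was measured by RASL-Seq, in which 2 neighbouring probes are joined only where both sit on an RNA caught by its poly(A) tail, and the joined product is then read. There were 1113 probes against 452 genes, of which 334 reached a mean of 50 reads over the 31 libraries. Library totals were 1814266 reads at the lowest, 3970354 at the median and 5577868 at the highest. The shallowest library, CEPT EB 13, had 15 of the 334 genes at 0 reads, against 6 in Y27 EB 9, at most 2 in any other library and none in 20 libraries. Values below are CPM, the reads of a gene relative to all reads of its library with TMM scaling, and spread is the pooled within-arm SD on the log2 scale.

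LEFTY2, HAND1, TDGF1, IDO1 and HHEX varied most among embryoid bodies, and the chaperone HSP90AB1 varied least. The SD ranged from 0.09 to 2.61 with a median of 0.37, and 31 genes exceeded 1. The 12 measured genes of the pluripotency list had a median of 0.36, close to that of all genes. In all 334 genes it was more than 2 times the SD that counting error alone would give (median 0.05). In the 205 genes measured in every control group, the median SD was 0.30 in embryoid bodies and 0.12 among control libraries, and 196 of the 205 varied more in embryoid bodies. The order of genes by SD was alike in both arms (Spearman 0.86 across the 334 genes, which are not independent replicates), and 13 of the 20 most variable genes of an arm were among the 20 of the other. Genes of lower mean level tended to have a larger SD (Spearman -0.56 across the same genes). What part level plays in this ranking was not tested.

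Within the Nodal pathway, the inhibitor LEFTY2 had the largest SD of all, 2.61. It lay between 0 and 38.6 CPM in CEPT EB (median 2.20, highest in CEPT EB 1) and between 0 and 159 CPM in Y27 EB (median 3.74, highest in Y27 EB 16). The median was 12 reads of LEFTY2 per library: 13 of the 31 libraries had under 10 reads and 7 had none. TDGF1, the Nodal co-receptor (SD 1.95), ranged over 11.4, 111 and 653 CPM (lowest, median, highest) in CEPT EB and over 0, 55.9 and 446 CPM in Y27 EB. The lowest libraries for TDGF1 were CEPT EB 13 and Y27 EB 9, and the highest were CEPT EB 7 and Y27 EB 16. GDF3, a ligand of the same family (SD 1.73), ran from 3.82 through 15.8 to 69.4 CPM in CEPT EB and from 0 through 8.35 to 158 CPM in Y27 EB. NANOG (SD 1.61) ran from 0 through 41.2 to 170 CPM in CEPT EB and from 4.91 through 28.6 to 120 CPM in Y27 EB. The 2 arms overlapped for each of these genes, and the same libraries stood at the ends of several of them.

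LEFTY2 took 27.8% ± 1.76 (SD, n = 4) of the reads of the endoderm libraries, which were pooled for sequencing with the others. The embryoid body library with most LEFTY2 reads was Y27 EB 10 with 610. It held 116 reads of LEFTY1, 17 of NPPB, 9 of GATA6, 3 of SOX17 and 0 of FOXA2. In endoderm these took 2.35%, 1.12%, 0.274%, 0.175% and 0.0210% of reads, in the same order. How far reads of the endoderm libraries reached others was not tested. LEFTY2 and LEFTY1 are close copies, and NANOG, TDGF1 and the metallothioneins have near-identical pseudogenes or paralogs, so reads could be shared between them.

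Several of the other highly variable genes were transcription factors, signals or receptors of development. HAND1, a factor of heart and extraembryonic mesoderm (SD 2.03), ran from 3.79 through 17.9 to 447 CPM in CEPT EB, with the top in CEPT EB 16, and from 0 through 15.6 to 207 CPM in Y27 EB, with the top in Y27 EB 2. HAND1 therefore peaked in other libraries than the pluripotency genes did. HHEX, a homeobox factor of anterior endoderm (SD 1.75), and KDR, a VEGF receptor of endothelial and mesodermal precursors (SD 1.65), were lowest at 0 CPM in both arms and highest in CEPT EB 7 at 80.2 and 38.2 CPM. GBX2, which marks anterior hindbrain (SD 1.58), ran from 0 through 55.4 to 137 CPM in CEPT EB and from 13.9 through 54.7 to 293 CPM in Y27 EB. WNT1, a ligand of the midbrain and hindbrain boundary (SD 1.47), PAX6, a neural progenitor factor (1.32), and KLF5, an epithelial and pluripotency factor (1.45), reached at most 90.3 CPM in any library.

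The remaining genes described among the 20 were of mixed function. The neuropeptide gene GAL (SD 1.35) ran from 38.8 through 151 to 455 CPM in CEPT EB and from 11 through 68.0 to 847 CPM in Y27 EB. The tryptophan-degrading enzyme IDO1 (1.87), the GABA-synthesising enzyme GAD1 (1.68), the metallothionein MT1G (1.46), the matrix gene EFEMP1 (1.30), IGFBP7 (1.30), ILDR2 (1.28) and ANXA1 (1.2) were the others. CEPT EB 7 was the highest CEPT EB library for 13 of the 20 genes and CEPT EB 13 the lowest for 12, while Y27 EB 16 was highest in its arm for 9 and Y27 EB 9 lowest for 8. In CEPT EB 13, 12 of the 20 genes had 0 reads. How far its lower depth accounts for those zeros was not tested. At the other end, the chaperones HSP90AB1 (SD 0.09) and HSPD1 (0.11), the serine metabolism enzyme SHMT2 (0.11), CALR (0.12) and LIN28B (0.12) varied least.

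**Figure D1:**
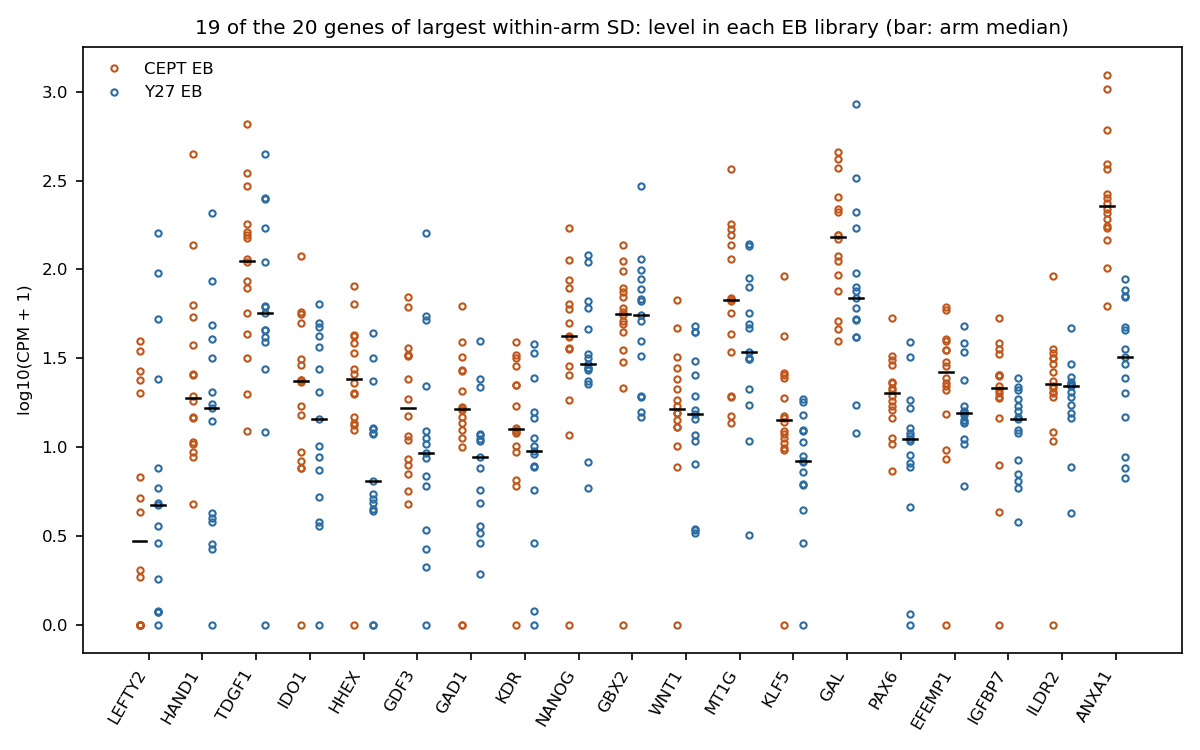
Level of 19 of the 20 genes of largest within-arm SD in each of the 31 embryoid body libraries, as log10(CPM + 1), with 16 CEPT EB libraries in orange, 15 Y27 EB libraries in blue and a bar at each arm's median. Most genes have a few libraries at or near 0 and a few far above the median, as for LEFTY2, which reaches 38.6 CPM in CEPT EB and 159 CPM in Y27 EB.

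Among all 55611 pairs of genes, 3918 (7.05%) were called as rising and falling together and 3242 (5.83%) as moving oppositely, 12.9% in all. Each pair was tested by Pearson's r of arm-centred log2 CPM over the 31 libraries, with a two-sided permutation test within arms. Benjamini-Hochberg adjustment was made over all pairs, with a threshold of 0.05. In simulated counts with shared factors, 11.3% of the pairs called this way joined unrelated genes. The median r of all pairs was -0.01, 316 pairs exceeded 0.8, 39 lay under -0.8, and 329 of the 334 genes had at least 1 called partner. With either sign, 4.75% of pairs were called in CEPT EB alone and 1.74% in Y27 EB alone. The balance of signs depended on the scaling: with library totals alone, without TMM factors, 23896 pairs were called positive and 4164 negative.

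Pairs picked in an arm were read in the other. The 50 highest pairs of CEPT EB all had a positive r in Y27 EB (median 0.78), and 24 of them were called there, where 1.26% of all pairs were called positive. The 50 highest pairs of Y27 EB were all positive in CEPT EB (median 0.85), and 46 were called, against 3.05% of all pairs. Of the 50 lowest pairs, 49 from CEPT EB kept a negative r in Y27 EB with 3 called (0.478% of all pairs), and 47 from Y27 EB did so in CEPT EB with 19 called (1.7% of all pairs). Different probes of the same gene, which are separate ligations on the same RNA, had a median r of 0.54 over 493 probe pairs in 243 genes, against -0.01 for probes of different genes. Of the same-gene probe pairs 55.2% exceeded 0.5, against 5.40% of the others. The median rose from 0.49 for genes of SD up to the lower quartile to 0.84 for genes of SD from the upper quartile on. Only probes with a mean of at least 50 reads were compared. Among the 20 genes of largest SD, only TDGF1 (r = 0.82), GBX2 (0.89), GAL and ANXA1 had such a pair. Agreement between probes was thus not seen for LEFTY2, HAND1, IDO1, HHEX and the rest of the 20.

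Average-linkage clustering on 1 - r, at a height of 0.5, gave 13 groups of at least 5 genes that held 180 genes in all. The groups were built from r, so the counts of called pairs inside and between them describe them and are no test. Each is named below by its leading gene, the one of highest mean r to the rest. In a reading chosen after the data were seen, groups built in an arm alone were read in the other arm: of 15 groups found in CEPT EB, 10 had a median r over 0.3 in Y27 EB, and of 15 found in Y27 EB, 8 did so in CEPT EB. The best preserved, led by SNRPF, RPL5 and H2AFZ with 19 genes, had median r values of 0.79 among CEPT EB libraries and 0.90 among those of Y27 EB. A CEPT EB group of 36 genes led by HHEX and TNNT1 fell from 0.71 to 0.22 in Y27 EB.

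**Figure D2:**
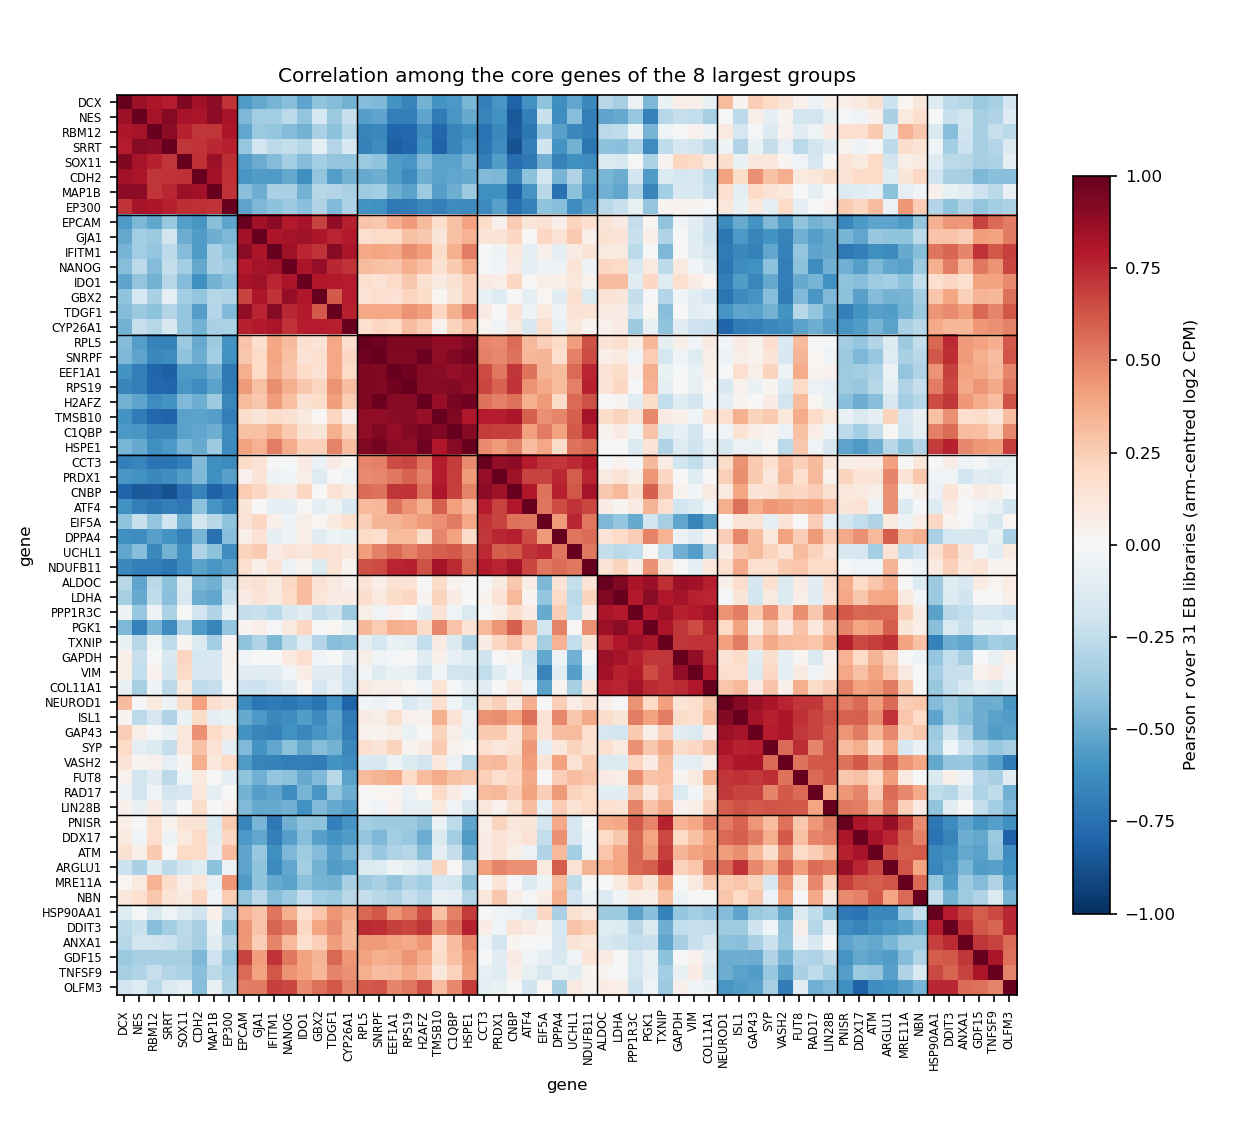
Pearson r of arm-centred log2 CPM over the 31 embryoid body libraries between the core genes (up to 8) of the 8 largest groups, with black lines between groups and colour from -1 (blue) to 1 (red). Blocks along the diagonal are red, the DCX block is blue against the RPL5 and CCT3 blocks, and the EPCAM block is blue against the NEUROD1 and PNISR blocks.

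The EPCAM group held pluripotency and epithelial genes beside many of other function. Its 40 genes had a median r of 0.61 (0.71 in CEPT EB and 0.54 in Y27 EB), and 583 of its 780 pairs were called. Its core was the epithelial adhesion gene EPCAM, the gap junction gene GJA1, the interferon-induced membrane gene IFITM1, NANOG, IDO1, GBX2, TDGF1 and the retinoic acid-degrading enzyme CYP26A1. The Nodal genes GDF3 and LEFTY2, the surface genes CD9 and PODXL, the keratin KRT18, the metallothioneins MT1F, MT1G and MT1X, and HHEX, KDR, ZIC2, KLF5 and GAL were further members.

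TDGF1 and IFITM1 moved most closely with each other among the partners of TDGF1 (r = 0.91, rho = 0.92, r = 0.93 without the 2 libraries farthest from the median). IFITM1 ranged over 895, 4682 and 20657 CPM in CEPT EB and over 395, 1959 and 7552 CPM in Y27 EB, EPCAM over 45.5, 178 and 1012 CPM and over 15.1, 65.1 and 196 CPM. Both were lowest in CEPT EB 13 and Y27 EB 9 and highest in CEPT EB 7 and Y27 EB 16, the same 4 libraries as for TDGF1. The other closest partners of TDGF1 were EPCAM (r = 0.89), GAL (0.87), CD9 (0.86) and GDF3 (0.86), all at an adjusted p of 0.000614 for r and 0.000812 for rho. LEFTY2 moved most with GAL (r = 0.79), GDF3 (0.72), GJA1 (0.71), IFITM1 (0.71) and MT1X (0.70), IDO1 with GJA1 (0.85), EPCAM (0.82) and NANOG (0.81).

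HHEX moved with NANOG (r = 0.83, adjusted p = 0.000614), though its rank correlation was lower (rho = 0.57, adjusted p = 0.0172) and r fell to 0.64 without the 2 farthest libraries. HAND1, outside the group, moved with RGS5 (r = 0.71), KRT18 (0.68) and KDR (0.62), all called by r and by rho. Its r of 0.60 with HAPLN1 fell to 0.32 without the 2 farthest libraries and its rho of 0.43 did not pass (adjusted p = 0.0875). Its r of 0.54 with TAGLN fell to 0.46 there.

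The control cultures took no part in the grouping, and their CPM was scaled over all 47 libraries with enough reads, apart from the CPM of embryoid bodies above. There 22 of the 40 EPCAM group genes were higher in hESC than in ectoderm (34.7% of all 334 genes), and 13 were lower (50.6%). Higher and lower here mean without overlap between the 4 libraries of each. Against mesoderm 25 of 40 were higher in hESC (31.7% of all genes) and 7 lower (42.2%), and against endoderm 17 were higher (35.9%) and 19 lower (44.6%). The median log2 ratio of hESC to ectoderm over the group was 1.10, against -0.36 over all genes, and that of hESC to endoderm was -0.32, against -0.19. NANOG had 1878 ± 170 CPM (SD, n = 4) in hESC and 0.127 ± 0.254 in ectoderm, and CD9 3739 ± 273 and 267 ± 37.1. GPC3 went the other way, with 1539 ± 69.1 CPM in hESC and 45844 ± 2806 in ectoderm. TDGF1, in contrast, was highest in endoderm at 8723 ± 74.0 CPM, against 2334 ± 88.4 in hESC. Of the 12 measured genes of the pluripotency list, NANOG, TDGF1, GDF3 and LEFTY2 fell in this group. SOX2, a factor of both pluripotent and neural progenitor cells, did not. In the list 14 of 66 pairs were called positive (21.2%, against 7.05% of all pairs) and 1 negative, with a median r of 0.14. GDF3 with TDGF1 (r = 0.86) and NANOG with TDGF1 (r = 0.75, rho = 0.87) had the highest r. The negative pair, LIN28B with TDGF1 (r = -0.51, adjusted p = 0.0328), did not pass by rank (rho = -0.31, adjusted p = 0.287).

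The DCX group held genes of neural progenitors and young neurons beside chromatin and RNA-binding genes. Its 44 genes had a median r of 0.63 (0.71 in CEPT EB and 0.52 in Y27 EB), and 733 of its 946 pairs were called. DCX and MAP1B are microtubule-binding genes of migrating neurons, NES an intermediate filament of neural progenitors, SOX11 a neural transcription factor and CDH2 N-cadherin, and RBM12, SRRT and the acetyltransferase EP300 were in its core with them. TUBB3, ELAVL3, SOX4, NR2F1, NR2F2, DLL1, NEUROG2, SOX10 and OLIG1 were further members, as were MKI67 and CENPF, genes of dividing cells.

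DCX and SOX11 were the closest pair outside the RPL5 group described below (r = 0.93, rho = 0.95, r = 0.92 without the 2 farthest libraries, adjusted p = 0.000614). DCX ranged over 331, 645 and 1377 CPM in CEPT EB and over 356, 617 and 1194 CPM in Y27 EB, SOX11 over 723, 1323 and 2096 CPM and over 430, 803 and 1679 CPM. Both were highest in CEPT EB 15 and Y27 EB 12, and both were lowest in CEPT EB 7 among CEPT EB. DCX moved also with the neuronal tubulin TUBB3 (r = 0.85), and SOX11 with NES (0.83). SOX2 moved oppositely to SOX11 (r = -0.65, adjusted p = 0.00266, rho = -0.66) and to DACH1 (r = -0.69, adjusted p = 0.00175, rho = -0.68). NR2F1 and NR2F2, orphan nuclear receptors, moved together (r = 0.80). In the controls 25 of the 44 genes were lower in hESC than in ectoderm without overlap (50.6% of all genes) and 15 higher (34.7%). Both counts are near the shares of all genes. NES had 1222 ± 141 CPM (SD, n = 4) in hESC and 5013 ± 360 in ectoderm, SOX11 211 ± 21.1 and 1635 ± 139, while TUBB3 went the other way with 1553 ± 186 and 138 ± 20.1.

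A separate neuronal group was led by NEUROD1, a neuronal differentiation factor. Its 8 genes were NEUROD1, the sensory and motor neuron factor ISL1, the growth cone gene GAP43, the synaptic vesicle gene SYP, VASH2, FUT8, RAD17 and LIN28B, with a median r of 0.69 (0.72 in CEPT EB and 0.64 in Y27 EB). NEUROD1 moved most with ISL1 (r = 0.92, rho = 0.90, r = 0.89 without the 2 farthest libraries) and with GAP43 (0.86). NEUROD1 ranged over 1291, 1995 and 3516 CPM in CEPT EB and over 1925, 2726 and 3545 CPM in Y27 EB. ISL1 ranged over 1221, 1962 and 3132 CPM and over 1670, 2456 and 3085 CPM. Both were lowest in CEPT EB 7 and Y27 EB 11, and highest in CEPT EB 13 among CEPT EB. Between the DCX and NEUROD1 groups the median r was only 0.04, and 30 of 352 pairs were called positive and 1 negative. The positive share is close to the 7.05% over all pairs, while the negative share is well under the 5.83% over all pairs. CEPT EB 7 had the lowest mean of both groups (-0.50 and -0.56 on the log2 scale).

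NEUROD1 genes stood against EPCAM genes. Between these groups 171 of 320 pairs were called negative and none positive (5.83% of all pairs were called negative), with a median r of -0.51. The count was 104 without CEPT EB 13, the lowest library of the EPCAM group and the highest of the NEUROD1 group, 43 with upper-quartile factors and 1 in Y27 EB alone, where the median r was -0.42. Between the EPCAM and DCX groups 498 of 1760 pairs were called negative and none positive (median r -0.34). With library totals alone these were 246 negative and 96 positive (median r -0.08). Over the marker lists, pairs of a pluripotency with a neuron gene were called negative in 37 and positive in 6 of 228, with a median r of -0.21. This sign held in each arm (-0.13 and -0.27) but not with library totals alone, where the median was 0.18 with 71 positive and 40 negative pairs. With upper-quartile factors 15 were negative. GJA1 of the EPCAM group and the neural adhesion gene NCAM1, which lay in no group, moved oppositely (r = -0.83, rho = -0.84), with r = -0.02 when library totals alone were used. The median r between the EPCAM and NEUROD1 groups stayed negative there (-0.34).

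Of the 15 highest pairs, listed with a gene at most 3 times, 14 lay in the RPL5 group, which held ribosomal protein genes beside others. Its 26 genes included the ribosomal protein genes RPL5, RPL13A, RPL15, RPS19 and RPS21, the elongation factor EEF1A1, the histone variant gene H2AFZ (now H2AZ1), the spliceosome gene SNRPF, the mitochondrial genes HSPE1, C1QBP, CYC1, TOMM7 and SLC25A5, the thymosins TMSB10 and TMSB15A, and the radial glia gene FABP7. They took 35.1% of reads in Y27 EB 12, 55.2% at the median and 73.2% in CEPT EB 12. Their median transcript length was 1169 bases for 25 genes with a length, against 2956.5 for 328 of all 334 genes, with members as long as DMRTA1 at 5569 bases. The median was 4530.5 bases in the DCX group and 2101 in the EPCAM group. In the CCT3 and PNISR groups described below it was 1511 and 4766.75. What part length plays in the grouping was not tested.

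H2AFZ and SNRPF had the highest r of all pairs, 0.98 (rho = 0.98, r = 0.98 without the 2 farthest libraries). H2AFZ ranged over 35934, 48084 and 95407 CPM in CEPT EB and over 20100, 30988 and 51967 CPM in Y27 EB. FABP7 and RPL13A followed with 0.98, RPL5 and SNRPF and H2AFZ and HSPE1 with 0.97 each, and EEF1A1 and RPS19 with 0.96, and the 15 pairs had an adjusted p of 0.000614 for r and 0.000812 for rho. These were the lowest values that 100000 permutations allowed (unadjusted p = 1e-05). H2AFZ, SNRPF and RPL13A were highest in CEPT EB 12 and Y27 EB 4.

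This group also tracked the scaling itself, the most closely of the 13 groups. The median r of its genes with the TMM factor of a library was -0.87. The same value was 0.50 in the DCX group, 0.57 in a group led by SRSF2 and -0.02 in the ALDOC group. In the PNISR and HSP90AA1 groups described below it was 0.36 and -0.49. Within the RPL5 group the median r between genes was 0.71, 0.22 with library totals alone and 0.13 once the scaling factor was regressed out. Of the 15 highest pairs 14 were still called with library totals alone, from 0.54 to 0.96, and RPS19 with SLC25A5 was not (0.36). What part the reads taken by a few RNAs play in these pairs was not tested. Ribosomal protein genes, EEF1A1 and H2AFZ have many processed pseudogenes, to which reads could belong.

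To show what the genes of the 2 closest pairs have at their starts, their promoters are printed from 250 bases before to 50 after the start (RefSeq, GRCh38.p14), 5′ to 3′ on the gene's strand. All 6 genes of the 3 closest pairs without a shared gene were matched by symbol. Capitals mark 5 words searched on both strands: the TATA box as TATAAA, the CCAAT box, an ETS site as CCGGAAG, an E-box as CACGTG and a cAMP response element as TGACGTCA. They stand at chr4:99950226-99950525 (minus strand, H2AFZ), chr12:95858702-95859001 (plus, SNRPF), chr6:122779466-122779765 (plus, FABP7) and chr19:49487358-49487657 (plus, RPL13A).
H2AFZ: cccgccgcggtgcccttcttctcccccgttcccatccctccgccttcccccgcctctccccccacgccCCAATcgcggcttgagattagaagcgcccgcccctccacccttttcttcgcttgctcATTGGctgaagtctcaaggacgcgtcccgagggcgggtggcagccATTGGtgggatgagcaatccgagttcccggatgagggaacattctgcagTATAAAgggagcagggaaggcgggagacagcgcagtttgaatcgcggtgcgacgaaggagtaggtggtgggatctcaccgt
SNRPF: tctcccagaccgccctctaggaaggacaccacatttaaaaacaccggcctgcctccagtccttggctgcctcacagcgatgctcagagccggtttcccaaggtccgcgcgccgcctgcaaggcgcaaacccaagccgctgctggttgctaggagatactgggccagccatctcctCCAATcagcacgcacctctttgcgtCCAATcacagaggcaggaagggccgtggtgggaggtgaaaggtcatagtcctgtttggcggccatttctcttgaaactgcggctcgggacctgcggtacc
FABP7: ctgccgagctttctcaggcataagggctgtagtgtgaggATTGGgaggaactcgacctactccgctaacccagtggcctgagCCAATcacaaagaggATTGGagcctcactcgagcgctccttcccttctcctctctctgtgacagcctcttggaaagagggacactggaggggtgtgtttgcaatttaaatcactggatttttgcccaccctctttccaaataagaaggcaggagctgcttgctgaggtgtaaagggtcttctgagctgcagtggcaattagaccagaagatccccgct
RPL13A: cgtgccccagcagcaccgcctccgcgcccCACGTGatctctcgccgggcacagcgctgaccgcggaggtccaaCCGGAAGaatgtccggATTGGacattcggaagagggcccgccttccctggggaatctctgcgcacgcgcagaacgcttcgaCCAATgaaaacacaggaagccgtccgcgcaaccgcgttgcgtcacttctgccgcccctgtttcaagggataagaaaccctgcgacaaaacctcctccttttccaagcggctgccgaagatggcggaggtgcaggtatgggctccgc
CCAAT was found in all 4, which 34.6% of 35116 promoters of this length hold, 3 times each in H2AFZ and FABP7 and 2 times each in SNRPF and RPL13A. TATAAA (11.5% of promoters) began at -31 in H2AFZ alone, and CCGGAAG (10.3%) and CACGTG (7.26%) were in RPL13A alone. TGACGTCA (1.85%) was in none of them. In EEF1A1 and RPS19, whose promoters are not printed, none of these words was found. A match is a description of letters, and neither shared nor separate words were tested against r.

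The CCT3 group held 15 genes of mixed function: the chaperonin subunit CCT3, the peroxidase PRDX1, CNBP, the stress-response factor ATF4, the translation factor EIF5A, the pluripotency gene DPPA4, UCHL1 and NDUFB11 were its core. Its median r was 0.61, and 80 of 105 pairs were called. The lowest pairs of all joined CNBP, a nucleic acid-binding protein, with the laminin LAMB1 (r = -0.92, rho = -0.86), the receptor PRTG (r = -0.90) and the orphan receptor NR6A1 (r = -0.89), all of them in the DCX group. CNBP ranged over 2760, 4623 and 5843 CPM in CEPT EB and over 3047, 4433 and 4961 CPM in Y27 EB, and LAMB1 over 577, 866 and 1913 CPM and over 807, 1039 and 1629 CPM. Y27 EB 12 was the lowest Y27 EB library for CNBP and the highest for LAMB1. The probes of these genes differed: of the 3 CNBP probes, 2 had r = 0.95 with each other and -0.35 and -0.36 with the other, and the 2 LAMB1 probes had r = 0.10.

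These opposite movements depended on the scaling. With library totals alone, CNBP and LAMB1 had r = -0.04, and of the 15 lowest pairs only 5 were still called: MAT2A with RPS19 and with EEF1A1, HMGA1 with TMSB10, NDUFB11 with PRTG, and NR2F1 with RPS19. The median r between the CCT3 and DCX groups turned from -0.41 to 0.43 and that between the CCT3 and RPL5 groups from 0.35 to -0.18. The median r between the DCX and RPL5 groups stayed negative, at -0.48 with TMM factors and -0.45 with totals, and was -0.10 with the scaling factor regressed out.

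**Figure D3:**
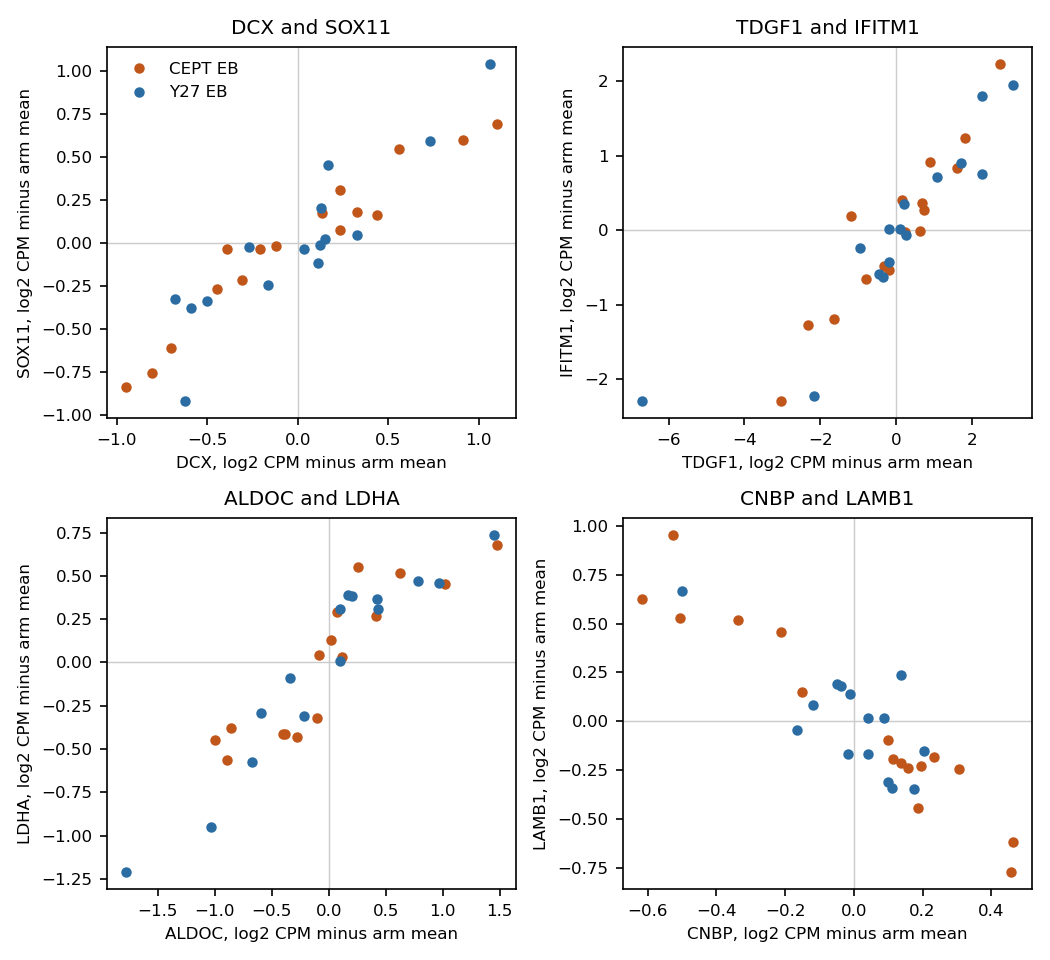
Arm-centred log2 CPM of 4 pairs of genes, 1 point per library with CEPT EB in orange and Y27 EB in blue. DCX with SOX11, TDGF1 with IFITM1 and ALDOC with LDHA rise together (r = 0.93, 0.91 and 0.93), and CNBP with LAMB1 move oppositely (r = -0.92, -0.04 with library totals alone).

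Glycolysis genes formed the group of highest median r. The ALDOC group held 10 genes, among them the glycolytic enzymes ALDOC, LDHA, PGK1 and GAPDH, the glycogen regulator PPP1R3C, TXNIP, which limits glucose uptake, the filament gene VIM and the collagen COL11A1. Its median r was 0.76 over both arms, 0.71 in CEPT EB and 0.82 in Y27 EB, and 44 of 45 pairs were called. In the list of hypoxia and glycolysis genes all 6 pairs of the 4 measured genes were called positive, with a median r of 0.86, and with library totals alone the median was 0.83.

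ALDOC and LDHA led with r = 0.93 (rho = 0.94, r = 0.90 without the 2 farthest libraries), and LDHA and PGK1 had r = 0.90. ALDOC ranged over 218, 424 and 1213 CPM in CEPT EB and over 129, 475 and 1211 CPM in Y27 EB. LDHA ranged over 1850, 2810 and 4379 CPM and over 1205, 3453 and 4647 CPM. Both were highest in CEPT EB 2 and Y27 EB 14 and lowest in Y27 EB 2 among Y27 EB. The mean of the ALDOC group was lowest in Y27 EB 16 (-0.80) and, among CEPT EB, in CEPT EB 7 (-0.55), the libraries in which the EPCAM group was highest. The median r of the ALDOC group with the EPCAM group was -0.09 and with the DCX group -0.17. In the controls 7 of its 10 genes were higher in hESC than in endoderm without overlap (35.9% of all genes) and 1 lower (44.6%). Against mesoderm 2 were higher (31.7% of all genes) and 5 lower (42.2%), and against ectoderm 4 higher (34.7%) and 5 lower (50.6%).

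A stress group was led by the chaperone HSP90AA1 and held DDIT3, a factor of the unfolded protein response, the secreted stress marker GDF15, TNFSF9, ANXA1 and OLFM3. Its 6 genes had a median r of 0.67, and all 15 pairs were called. GDF15 moved with TNFSF9 (r = 0.81, r = 0.71 without CEPT EB 7) and with DDIT3 (r = 0.62, adjusted p = 0.00448). GDF15 ranged over 35.7, 86.0 and 1005 CPM in CEPT EB, with the top in CEPT EB 7, and over 3.97, 14.5 and 65.8 CPM in Y27 EB. ATF4, which acts upstream of DDIT3 in that response, had r = 0.08 with it (adjusted p = 0.828). Between the stress and EPCAM groups 68 of 240 pairs were called positive (7.05% of all pairs were) and none negative, with a median r of 0.41. With the scaling factor regressed out the positive count was 34. Between the stress and RPL5 groups 47 of 156 were positive and none negative (median r 0.39), and 13 positive and 16 negative with library totals alone. Without CEPT EB 13 and Y27 EB 9 the EPCAM count was 43. Both groups were highest in CEPT EB 7, at 1.68 and 1.62 above the arm mean on the log2 scale.

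The PNISR group joined RNA-processing and DNA-repair genes: PNISR, DDX17 and ARGLU1 with the damage kinase ATM, MRE11A and NBN. Its median r was 0.63. It stood against the stress group, with 23 of 36 pairs called negative and none positive (median r -0.54), and against the EPCAM group, with 99 of 240 negative and none positive (median r -0.45), where 5.83% of all pairs were negative. Its negative pairs with the stress group numbered 10 with upper-quartile factors and 14 with library totals alone, and those with the EPCAM group 20 and 50. Without CEPT EB 13 they numbered 18 and 61. With the NEUROD1 group 15 of 48 pairs were called positive (7.05% of all pairs were) and none negative.

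Smaller groups followed lineage lines in part. PAX3 and FOXD3, factors of neural crest, grouped with SMOC1, CDH20 and SCUBE1 (median r 0.58). In the neural crest list 7 of 21 pairs were called positive (7.05% of all pairs) and 1 negative (5.83%), led by ETS1 with SOX10 (r = 0.71). That positive count was 1 with upper-quartile factors. It was 18 with library totals alone, where far more of all pairs were called positive. PEG10, FZD3, COL2A1, RBM14 and SFRP1 formed another (median r 0.67). A group of PTGDS, ZIC1, ACHE, DIAPH2 and DPPA2 had a median r of 0.58, with 1 of its 10 pairs called, that fell to 0.09 without CEPT EB 13, and was -0.04 in Y27 EB. OLIG1 and OLIG2, factors of the oligodendrocyte lineage, moved together (r = 0.64, adjusted p = 0.00362).

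Counts within the other lists stand against 7.05% positive and 5.83% negative over all pairs. Neuron genes had 35 of 171 pairs positive and 1 negative (median r 0.21), and neural progenitor genes 15 of 78 positive and 7 negative (-0.02). Nodal, BMP, WNT and FGF signal genes had 5 of 36 positive (0.25), led by CYP26A1 with TDGF1 (r = 0.78), and 30 of their 171 pairs with neuron genes were negative and none positive. Epithelium and trophoblast genes had 2 of 3 positive, mesoderm and heart genes 2 of 6, glia genes 1 of 10, and actin-linked genes 1 of 6 with 1 negative. Integrated stress response genes had 1 of 6 positive, genes of DNA damage, arrest and death 5 of 36 with 1 negative, and redox and iron genes 2 of 28 with 1 negative. Brain region regulators had 1 of 21 positive, NR2F1 with NR2F2. Pairs of cell cycle (3), cartilage and matrix (3), blood and endothelium (1) and mitochondrial ATP production genes (1) had none called, and the endoderm list had only HHEX measured and no pair.

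Principal components put numbers on how much of the movement was shared. The first component carried 36.8% of the arm-centred variance (jackknife SE 6.13 percentage points over the 31 libraries), and LEFTY2, TDGF1, IDO1, NANOG, HHEX, GDF3, KDR, GBX2, KLF5 and MT1G had its largest loadings, all of one sign. CEPT EB 13 and Y27 EB 9 lay at its low end and CEPT EB 7 and Y27 EB 16 at its high end. Without CEPT EB 13 and Y27 EB 9 the share was 29.7%, and with each gene scaled to unit SD it was 23.2%. The mean of the EPCAM group lay 2.54 below the arm mean on the log2 scale in CEPT EB 13 and 1.68 below it in Y27 EB 9, and 1.62 and 1.35 above it in CEPT EB 7 and Y27 EB 16. The second component, with 11.5%, set WNT1, ILDR2, PAX6, GAD1, GBX2 and ZIC1 against LEFTY2, RPS21, TMSB10 and FABP7. Components 3 and 4 carried 7.25% and 6.66%. HAND1 had the largest loading on the fourth component.

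**Figure D4:**
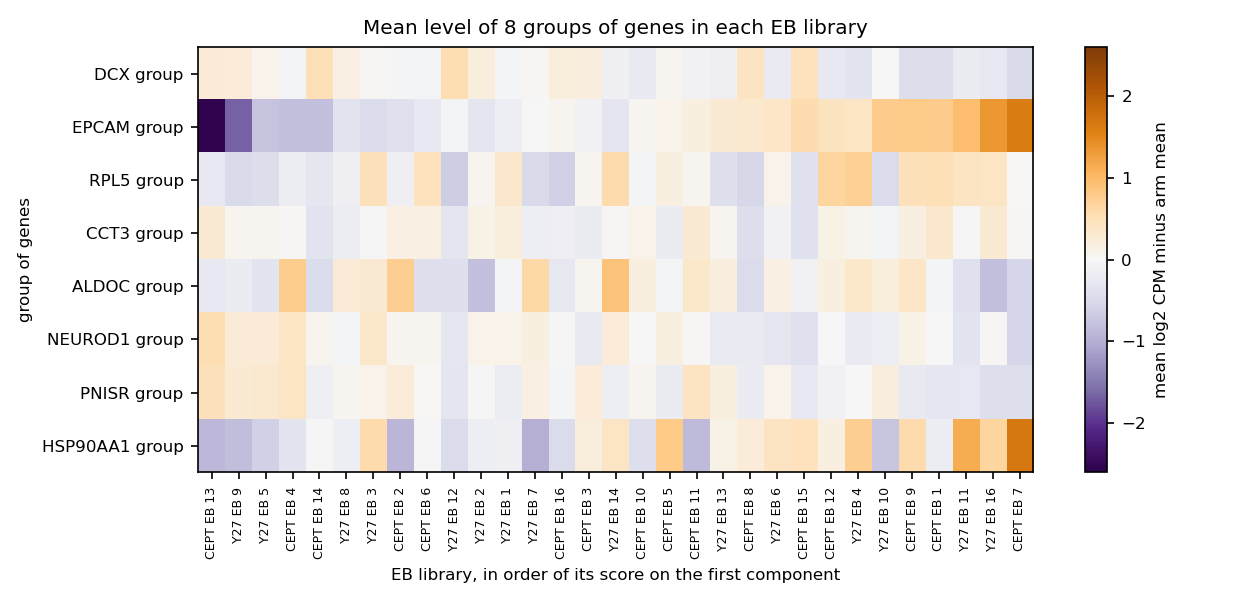
Mean arm-centred log2 CPM of the genes of the 8 largest groups (rows) in each of the 31 embryoid body libraries (columns, ordered by score on the first component), from purple (below the arm mean) to orange (above). The EPCAM row runs from -2.54 in CEPT EB 13 to 1.62 in CEPT EB 7, while the ALDOC row, with its top in Y27 EB 14 at 0.88, is lowest in Y27 EB 16 at -0.80, where the EPCAM row is at 1.35.

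Few single genes were called against sequencing depth. By group, the median r with the log2 library total ran from -0.43 to 0.48 over the 13 groups. It was 0.37 in the RPL5 group, 0.31 in the EPCAM group, -0.30 in the PNISR group and -0.32 in the DCX group. In the ALDOC and CCT3 groups it was 0.07 and 0.03. Of the 334 genes 2 (0.599%), FABP7 (r = 0.55, rho = 0.58) and RPL13A (r = 0.55, rho = 0.54), were called against the log2 library total, both at an adjusted p of 0.0401. None was called without CEPT EB 13, and 48 were with library totals alone.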

How the data were processed

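The authors deposited raw read counts per probe, per the labels obtained with a custom aligner against their own probes, and not normalized. The submitters' processing notes name hg38 and DESeq2 with no version, and mismatch settings and probe sequences are not given in the sources used here. The merged count table was used: its 48 columns equal the sample tables, and 16 further columns matching no label were left out.

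Counts were summed per gene. TMM factors and log2 CPM (prior count 2) were computed with edgeR 4.0.16 in R 4.3.3, for genes with a mean of at least 50 reads, and arms were centred. Permutation tests within arms used 100000 resamples (numpy 2.4.6, scipy 1.17.1, Python 3.11.15). Library totals ranged from 1814266 to 5577868 reads; without molecular identifiers counting error is a lower limit to error. The procedure was tested on simulated counts with shared factors. Calls between unrelated genes stayed under the nominal share of 0.05 before counting and scaling were simulated (4.30% of calls). They exceeded it with both (11.3%).

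Named genes were the 20 of largest SD, the 15 highest and 15 lowest pairs (a gene at most 3 times), up to 8 core genes per group, the 10 largest loadings, up to 4 pairs at each end per list and the 5 closest partners of 5 genes. Controls and further members of groups were named as examples after their values were seen. Members and lists were chosen with earlier results of these data known. No 2 libraries were duplicates (lowest chi-square per degree of freedom 52.0). Alternatives were other scalings, filters, prior counts, rank correlation, probe means, regressing out depth, libraries left out, a replicate block and 1 arm alone; 2 were added after seeing the data. Some results, among them 1 of the 20 most variable genes, are not reported here.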

Additional observations from a re-analysis of the deposited data

Results flagged for a closer look

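LEFTY2, the most variable gene, had 1 control library far from the other 3 in 3 control groups. In ectoderm, library 4 had 288 CPM and the others 1.72 to 37.0. In mesoderm, library 3 had 14.2 CPM and the others 0.973 to 1.93. In endoderm, library 3 had 487886 CPM and the others 428164 to 434310. Of 20 combinations of the 5 most variable genes with 4 control groups, 3 had such a library, where chance gives about 1 in 20.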

How the results depend on the processing

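All 55 named pairs kept their sign and call with DESeq2 median-ratio factors, upper-quartile factors, a prior count of 0.5, library total regressed out, and without CEPT EB 13. With library totals alone 23896 pairs were positive, the median SD was 0.489, the first component held 30.5% and 48 genes followed depth; CCT3 with LAMB1 (0.023), ATF4 with PRTG (0.14), NCL with RPL15 (0.36), ATF4 with CENPF (0.26), RPL15 with SRRT (0.46) and CCT3 with HMGA1 (0.12) changed sign, and the cause was not tested. Negative pairs numbered 2121 with upper-quartile factors, 2127 with the scaling factor regressed out, and 2009 (2480 positive) with the first component removed. A mean of at least 10 reads gave an SD of 0.436 and a first component of 25.9%, at least 200 reads an SD of 0.319. With unit SD per gene the component was 23.2%, and without CEPT EB 13 and Y27 EB 9 it was 29.7%. CEPT EB alone gave 1694 positive and 947 negative pairs and Y27 EB alone 702 and 266, from fewer libraries. The 2 genes related to depth became 0 with upper-quartile factors, probe means, Y27 EB 15 included, or CEPT EB 13 left out. Leaving out each library in turn, the SD ranged from 0.364 to 0.380 and the first component from 33.5% to 38.3%. Replicate numbers do not pair the arms: of 15 same-numbered pairs 3 correlated above 0.1 (range -0.609 to 0.228) and 0 CEPT EB libraries matched their own number best. With the number as a replicate block, 1639 positive and 1236 negative pairs were called, the component was 44.5% and 77 genes followed depth.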
